A study of Homo sapiens with 4 samples.

Results

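The inflammatory chemokines described here are 10 ligands that call leukocytes into tissue, CXCL1, CXCL2, CXCL3, CXCL5, CXCL8, CXCL10, CXCL11, CXCL16, CCL2 and CCL20. They were taken by symbol from a gene expression table with 18806 genes, of which 47 are chemokine ligands, and all 10 were found. The table holds RNA-seq values from Huh7, a human hepatocellular carcinoma line, with 2 libraries for cells carrying a non-targeting guide (sgNS, genotype WT in the labels) and 2 libraries for cells carrying a guide against METTL16, which encodes an RNA m6A methyltransferase. The comparison asks what happened to these transcripts when METTL16 was targeted. The libraries with the METTL16 guide carry the genotype METTL16 knockdown in the labels and are called knockout (KO) in the study, and the name METTL16 KO is used here. Both groups come from Huh7 cells made to express Cas9, grown from a single clone, then given a lentiviral guide and kept under hygromycin at 1 mg/mL. The study's methods give 2 biological replicates for each kind of RNA sample. The labels number the libraries within a group without saying whether a number stands for a culture or a guide. An effect of a guide and an effect of METTL16 thus cannot be told apart, and the errors below rest on differences between libraries only.

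Chemokines act on G protein-coupled receptors of migrating cells. CXCL1, CXCL2, CXCL3, CXCL5 and CXCL8 (interleukin-8) bind CXCR2 and attract chiefly neutrophils, and most of their genes sit side by side on chromosome 4. CXCL10 and CXCL11 are interferon-inducible ligands of CXCR3 that attract T cells and natural killer cells. CCL20 is the ligand of CCR6 and draws Th17 cells, B cells and immature dendritic cells, CXCL16 is made as a transmembrane protein that binds CXCR6, and CCL2 attracts monocytes through CCR2. Many of these genes are classical targets of NF-kB, a transcription factor family that binds kappaB sites, and their short-lived mRNAs are removed by proteins that recognise their untranslated ends. Hepatocytes and liver cancer cells make several of them during inflammation.

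The promoters of the members whose transcripts were measurable are shown because they are the places where NF-kB and interferon-driven factors are known to act. RefSeq promoter windows on GRCh38.p14, which run from 250 bases before to 50 bases after a start, were matched for 8 of the 10 members, CXCL16 and CCL2 being the exceptions. Each sequence below holds the 150 bases before the RefSeq start, or 230 for CXCL10, read 5′ to 3′ on the gene's own strand. Capitals mark matches to the kappaB consensus, to the shorter kappaB form GGNNTTTCC and, in CXCL10, to the core of the interferon-stimulated response element, searched on both strands. The windows are chr4:73869243-73869392 (plus strand) for CXCL1, chr4:74099196-74099345 (minus strand) for CXCL2, chr4:74038690-74038839 (minus strand) for CXCL3, chr4:73998678-73998827 (minus strand) for CXCL5, chr4:73740419-73740568 (plus strand) for CXCL8, chr4:76023498-76023727 (minus strand) for CXCL10 and chr2:227813692-227813841 (plus strand) for CCL20.
CXCL1: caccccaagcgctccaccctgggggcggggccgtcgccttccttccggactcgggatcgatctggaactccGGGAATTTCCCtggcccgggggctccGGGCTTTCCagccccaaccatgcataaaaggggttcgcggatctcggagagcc
CXCL2: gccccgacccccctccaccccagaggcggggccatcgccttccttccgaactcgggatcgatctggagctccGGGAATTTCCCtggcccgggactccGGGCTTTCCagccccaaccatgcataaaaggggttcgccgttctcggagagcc
CXCL3: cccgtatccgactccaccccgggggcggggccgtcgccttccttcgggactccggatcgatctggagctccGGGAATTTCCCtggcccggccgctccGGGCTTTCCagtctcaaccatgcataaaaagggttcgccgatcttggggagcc
CXCL5: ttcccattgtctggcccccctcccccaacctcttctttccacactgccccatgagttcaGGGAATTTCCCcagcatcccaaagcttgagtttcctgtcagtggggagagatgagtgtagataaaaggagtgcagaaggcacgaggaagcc
CXCL8: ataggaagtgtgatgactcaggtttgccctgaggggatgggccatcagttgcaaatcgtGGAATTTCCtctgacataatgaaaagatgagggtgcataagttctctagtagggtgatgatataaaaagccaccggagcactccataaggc
CXCL10: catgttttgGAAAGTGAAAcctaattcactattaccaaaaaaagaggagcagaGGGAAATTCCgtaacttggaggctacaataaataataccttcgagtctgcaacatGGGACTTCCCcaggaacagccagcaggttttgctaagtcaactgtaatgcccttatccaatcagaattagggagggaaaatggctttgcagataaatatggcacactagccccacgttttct
CCL20: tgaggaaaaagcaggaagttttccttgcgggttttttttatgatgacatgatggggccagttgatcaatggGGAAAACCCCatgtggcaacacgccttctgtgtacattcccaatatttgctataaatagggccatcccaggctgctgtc

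CXCL1, CXCL2 and CXCL3 share the same arrangement, with GGGAATTTCC starting 79, 78 and 79 bases before the start and GGGCTTTCC at -53 to -45 in all 3. CXCL5 holds GGGAATTTCC at -91 to -82. CXCL8 lacks the full consensus but holds the shorter form at -91 to -83, and it also holds TGANTCA, the letters bound by AP-1, at -137 to -131. CXCL10 has kappaB matches at -177 to -168 and -122 to -113 and is the only one of the 8 members with the interferon response core, at -221 to -212. In CCL20 the match lies on the opposite strand at -79 to -70. The kappaB consensus was found in 7 of the 8 windows against 11.3% of all 35116 RefSeq promoter windows, and GGNNTTTCC, which overlaps it, in 8 of 8 against 6.26%. The interferon response core was found in 1 of 8 against 3.57% of all windows, TGANTCA in CXCL8 and CXCL11 against 7.71%, and TATAAA in CXCL8, CXCL11 and CCL20 against 11.5%. These are matches of letters, and binding was not measured.

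The libraries were alike within groups. The table gives transcript abundance corrected for transcript length and set to the same total in every library (TPM), so sequencing depth is unknown. Genes at 1 TPM or more numbered 11723 to 11768 in sgNS and 12051 to 12074 in METTL16 KO, and Pearson's r across genes was 0.997 within each group and 0.943 to 0.945 between groups. The targeted METTL16 transcript was at 26.29 and 25.14 TPM (sgNS) versus 17.62 and 18.75 TPM (METTL16 KO), for a log2 change of -0.50 ± 0.062 (SE, adjusted p = 2.4e-05). Fold changes are METTL16 KO minus sgNS on log2(TPM + 0.1), tested with limma over the 11971 genes whose mean was at least 1 TPM and adjusted by the Benjamini-Hochberg method over all of them. Each SE of a fold change is limma's moderated value. It draws on the spread of all genes tested as well as that of the gene's own libraries. The median of all 11971 genes was 0.16, and it was -0.03 after median-ratio scaling and 0.01 after quantile normalization. A gene is called here at an adjusted p under 0.05, with or without a change of at least 1 on the log2 scale in either direction. An exact permutation test of a single gene, 2 against 2, cannot go below 0.33 and was not used.

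In METTL16 KO, the transcripts of 6 chemokines, CXCL1, CXCL2, CXCL3, CXCL5, CXCL8 and CXCL10, rose between 4.27-fold and 23.6-fold, CCL20 rose 1.58-fold from a high level, CXCL16 fell slightly, CXCL11 stayed under 1 TPM and CCL2 was listed at 0 throughout. Of the 10 members, 8 passed the filter on low values, and all 8 had an sgNS mean of at least 1 TPM, so none passed only through METTL16 KO. Of those 8, 6 were higher past both thresholds, against 922 of all 11971 genes (7.70%), and 0 were lower past both, against 451 (3.77%). At the adjusted p alone, 7 were higher against 50.1% of all genes and 1 was lower against 25.6%. Median-ratio scaling left all of these member counts as they were, while over all genes it gave 625 higher and 702 lower past both thresholds, and 33.7% higher and 38.9% lower at the adjusted p alone. The groups did not overlap for 8 of 8 members, and they did not overlap for 87.4% of all genes tested, which makes that count uninformative alone. The median log2 fold change of the 8 was 2.68. A log2 fold change of at least 2 was reached by 6 of the 8 and by 192 of the 11971 genes (1.60%). RNA was taken from whole cultures, so a larger share of cells making a chemokine and more RNA per cell cannot be told apart.

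**Figure D1:**
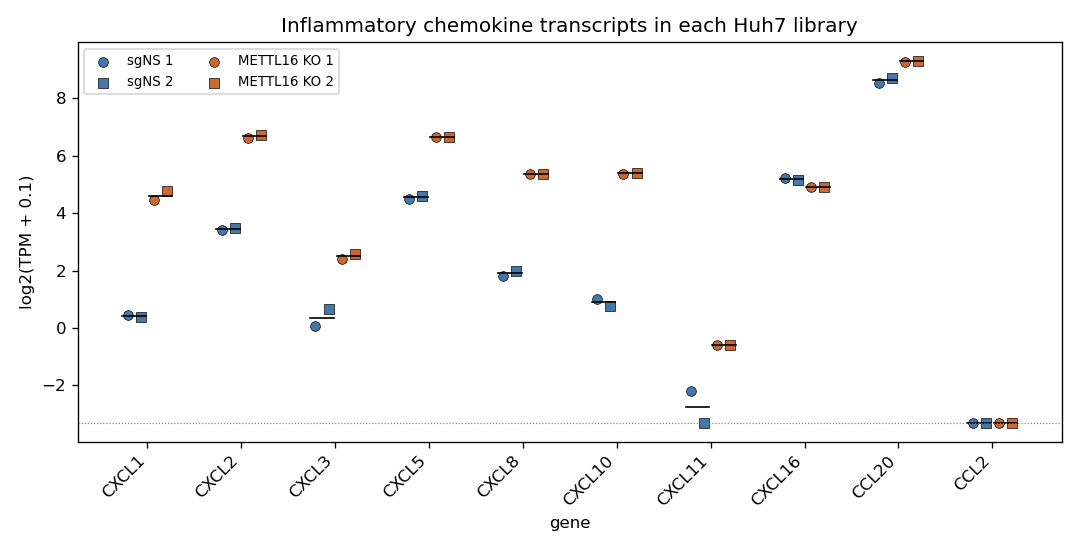
Level of each of the 10 chemokines as log2(TPM + 0.1) (vertical axis), in sgNS (blue) and METTL16 KO (orange), with circles for replicate 1, squares for replicate 2, short lines for the group mean of 2 libraries and a dotted line where TPM is 0. CXCL1, CXCL2, CXCL3, CXCL5, CXCL8 and CXCL10 sit well above sgNS in METTL16 KO, CXCL16 sits just below it and CCL2 stays on the dotted line.

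Among the ligands of CXCR2, CXCL1 moved most. It was at 1.27 and 1.19 TPM (sgNS) versus 21.7 and 27.26 TPM (METTL16 KO). Every METTL16 KO value thus lay at least 17.1-fold above every sgNS value, and the means were 1.23 ± 0.057 and 24.5 ± 3.9 TPM (SD, n = 2 each). The fold change between means was 19.9, and on the log2 scale it was 4.20 ± 0.12 (SE) with an adjusted p of 3.8e-10 by limma, the rise ranked 20 of 11971 genes. CXCL1 is a neutrophil attractant known first as a melanoma growth factor.

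CXCL2 encodes a close relative of CXCL1 and started from a higher level. Its values were 10.56 and 11.04 TPM in sgNS and 98.8 and 104.84 TPM in METTL16 KO, with no overlap and little spread in either group. The change was 3.22 ± 0.055 (SE) on the log2 scale, 9.43-fold between means, with an adjusted p of 8.7e-12. CXCL3, the third of these close relatives, was at 0.94 and 1.49 TPM (sgNS) versus 5.2 and 5.9 TPM (METTL16 KO). Its sgNS libraries differed from each other more, in proportion, than those of the other ligands of CXCR2, and the ratio between single libraries ran from 3.49 to 6.28. The log2 fold change of CXCL3 was 2.13 ± 0.20 (SE), with an adjusted p of 2.5e-06. These 3 mRNAs are partly alike in sequence, so reads can be split between them. In 50-base windows of the GENCODE canonical transcripts, 5.33% of the windows of CXCL1, 10.1% of CXCL2 and 5.26% of CXCL3 also occurred in another chemokine transcript, while the remaining 7 members shared none. The sum of the 3 transcripts, which depends only slightly on how such reads were split among them because the 3 mRNAs are of similar length, was 12.8 and 13.7 TPM in sgNS and 125.7 and 138.0 TPM in METTL16 KO, a ratio of 9.96.

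CXCL5, once named for its release from epithelial cells, was the most abundant ligand of CXCR2 in sgNS. It was at 22.59 and 24.23 TPM there and rose to 99.21 and 100.66 TPM (METTL16 KO). The replicates were tight in both groups, and the log2 fold change was 2.09 ± 0.050 (SE), 4.27-fold between means, with an adjusted p of 9.3e-11. CXCL8, a potent neutrophil attractant that also promotes blood vessel growth, was at 3.44 and 3.89 TPM (sgNS) versus 41.13 and 41.28 TPM (METTL16 KO). All METTL16 KO values were at least 10.6-fold above all sgNS values, and the log2 fold change was 3.46 ± 0.079 (SE) with an adjusted p of 6e-11. Summed, the 5 ligands of CXCR2 went from 38.8 and 41.8 TPM (sgNS) to 266.0 and 279.9 TPM (METTL16 KO), a ratio of 6.77 that is given with no test.

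CXCL10, the interferon-inducible ligand of CXCR3, had the largest rise of the members. It was at 1.93 and 1.6 TPM (sgNS) versus 40.89 and 42.32 TPM (METTL16 KO), and single libraries differed by at least 21.2-fold. The log2 fold change was 4.49 ± 0.098 (SE), 23.6-fold between means of 1.77 ± 0.23 and 41.6 ± 1.0 TPM (SD, n = 2 each), with an adjusted p of 4.6e-11 and rank 16 among all rises. CXCL11, which binds the same receptor more tightly, was at 0.12 and 0 TPM (sgNS) and reached 0.57 TPM in each METTL16 KO library. Its mean over the 4 libraries was under the minimum, so it was not tested in the fit of 11971 genes, and with all genes above 0 included its log2 fold change was 2.18 with an adjusted p of 0.011. Both genes lie inside ART3, a gene of the ADP-ribosyltransferase family on the opposite strand (chr4:76011184-76114048, plus strand). ART3 was at 6.43 and 5.55 TPM (sgNS) versus 1.84 and 2.03 TPM (METTL16 KO), for a log2 change of -1.58 (adjusted p = 1.2e-06), and so moved the other way. The library kit keeps strand, but whether the counting used strand is not given in the sources used here.

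CCL20 was by far the most abundant member. It was at 371.21 and 415.33 TPM (sgNS) versus 608.79 and 634.01 TPM (METTL16 KO). The groups did not overlap, single libraries differed by 1.47-fold to 1.71-fold, and the log2 fold change was 0.66 ± 0.047 (SE) with an adjusted p of 3.1e-07. By size this rise ranked 1944 of 11971, and it kept its direction under every alternative tried (0.46 to 0.74). CXCL16, a membrane-bound chemokine that also takes up oxidised lipoproteins, was at 37.09 and 35.06 TPM (sgNS) versus 29.85 and 29.86 TPM (METTL16 KO). It was 1.21-fold higher in sgNS, for a log2 change of -0.27 ± 0.053 (SE, adjusted p = 0.00075), and was the only tested member that fell, with a range of -0.47 to -0.23 over the alternatives. Its gene ends overlap those of MED11 and ZMYND15 on the other strand. CCL2 was listed at 0 in all 4 libraries, so no fold can be given.

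**Figure D2:**
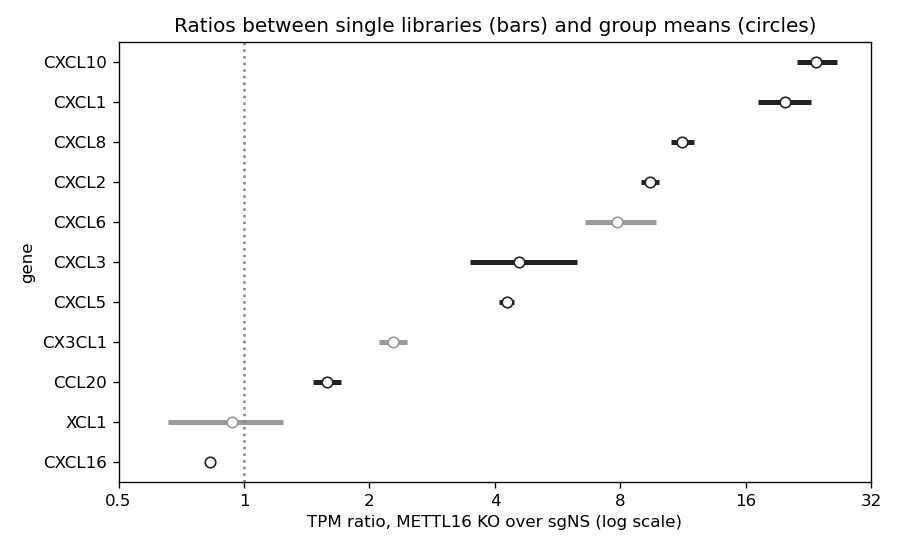
TPM ratio of METTL16 KO to sgNS on a log axis for the 8 tested chemokines of the member list (black) and 3 other tested chemokine ligands (grey), where bars run from the lowest to the highest of the 4 ratios between single libraries, circles give the ratio of group means and the dotted line marks a ratio of 1. CXCL10 at 23.6 and CXCL1 at 19.9 lie farthest right, the CXCL3 bar is the longest among the members that rose, and the XCL1 bar crosses the line.

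The make-up of the chemokine transcripts changed along with the levels. TPM is given per transcript length and can be compared between genes. In sgNS the order of mean levels ran CCL20, CXCL16, CXCL5, CXCL2, CXCL8, CXCL10, CXCL1, CXCL3 and CXCL11, with CXCL1 and CXCL3 overlapping. In METTL16 KO it ran CCL20, CXCL2, CXCL5, CXCL10, CXCL8, CXCL16, CXCL1, CXCL3 and CXCL11, and neither CXCL2 and CXCL5 nor CXCL10 and CXCL8 were separated by their libraries. CXCL16 thus went from place 2 to place 6 and CXCL2 from place 4 to place 2. The summed TPM of the 10 members was 449.1 and 493.8 in sgNS and 946.1 and 986.7 in METTL16 KO, a ratio of 2.05, and without CCL20 the ratio was 4.41. CCL20 made up 83.4% of the summed TPM in sgNS and 64.3% in METTL16 KO. The share of CXCL2 went from 2.29% to 10.5%, that of CXCL10 from 0.374% to 4.31% and that of CXCL8 from 0.777% to 4.26%, while CXCL16 went from 7.65% to 3.09%.

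**Figure D3:**
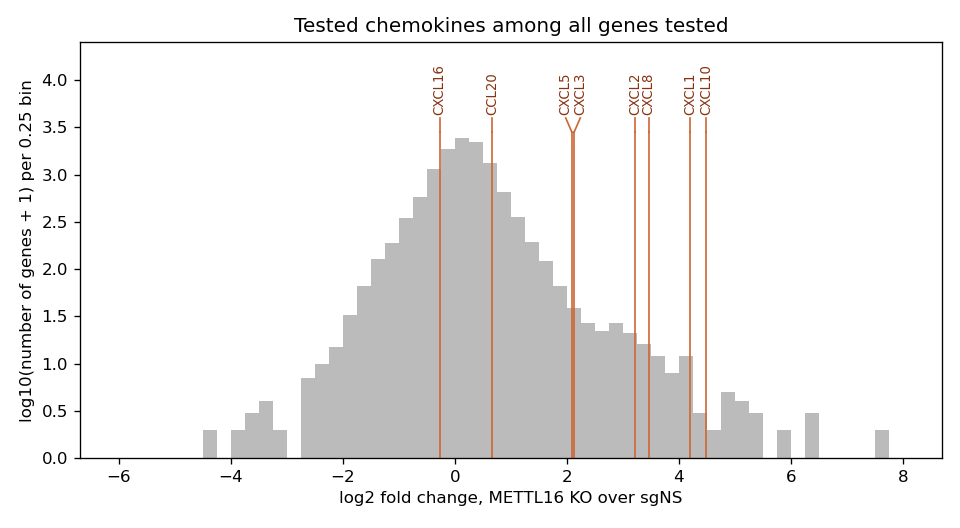
Distribution of log2 fold changes (METTL16 KO over sgNS, horizontal axis) of the 11971 genes tested, as log10(number of genes + 1) per bin of 0.25 (vertical axis), with the 8 tested chemokines as orange lines. CXCL16 and CCL20 lie within the main body of genes, and the other 6 lie at 2.09 or more, where genes are few.

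Most other chemokine ligands were not measurable in these cells. Of 38 others listed, 37 were in the table, 33 were under 1 TPM in every library and 16 of those were listed at 0 in all 4. The 3 that could be tested were CXCL6, CX3CL1 and XCL1. CXCL6, a ligand of CXCR1 and CXCR2 encoded between CXCL8 and CXCL1, was at 1.7 and 1.17 TPM (sgNS) versus 11.39 and 11.19 TPM (METTL16 KO), for a log2 change of 2.91 ± 0.16 (SE, adjusted p = 3.8e-08). Its promoter window holds GGGAATTTCC at -90 to -81, 1 base from the place it has in CXCL5. CX3CL1 (fractalkine), like CXCL16 a membrane-bound chemokine, was at 28.12 and 25.26 TPM (sgNS) versus 59.31 and 62.27 TPM (METTL16 KO), and rose by 1.19 on the log2 scale with an adjusted p of 2.3e-08. XCL1 overlapped between groups, at 3.66 and 3.96 TPM against 4.53 and 2.6 TPM, and its log2 fold change of -0.14 had an adjusted p of 0.54. CXCL9, the remaining ligand of CXCR3, was at 0.02 and 0.05 TPM (sgNS) versus 1.02 and 1.06 TPM (METTL16 KO) and fell short of the filter.

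Transcripts of the receptors that these ligands use were nearly absent from the cells themselves, with CCR6 the exception. Of 23 chemokine receptors in the table, 16 were under 1 TPM in every library, including CXCR1, which was at 0 in all 4. CXCR2 was at 0 TPM in both sgNS libraries and at 0.03 and 0 in METTL16 KO, and CXCR3 was at 0 TPM in sgNS, with 0.04 and 0.05 TPM under METTL16 KO. CXCR6, the receptor of CXCL16, was between 0.13 and 0.33 TPM in the 4 libraries. CCR6, the receptor of CCL20, was at 54.14 and 51.89 TPM (sgNS) versus 22.0 and 22.02 TPM (METTL16 KO). It fell by 1.26 ± 0.051 (SE) on the log2 scale with an adjusted p of 4.2e-09, so the CCL20 transcript was higher and that of its receptor lower in the same libraries.

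Of the 5 receptors tested, 2 were higher, beside 50.1% of all genes, 1 was lower, beside 25.6%, and 2 did not pass. The receptors called also passed the fold threshold, as did 7.70% of all genes for a rise and 3.77% for a fall. CCR1, a receptor for several CC chemokines, was at 1.07 and 1.19 TPM (sgNS) versus 3.44 and 3.67 TPM (METTL16 KO), for a log2 change of 1.57 (adjusted p = 6.6e-06). CXCR4, the receptor of CXCL12, was at 0.27 and 0.46 TPM (sgNS) versus 1.92 and 1.79 TPM (METTL16 KO), for a log2 change of 2.10 (adjusted p = 5.1e-05), and passed the filter only through METTL16 KO. CCR10 (0.83, adjusted p = 0.067) and ACKR2, a scavenging receptor (0.39, adjusted p = 0.052), did not pass. Both passed in the fit with the replicate block, at 0.00096 and 0.02, though the labels tie the replicate numbers to nothing shared. In an unmoderated linear model without the block they were at 0.43 and 0.28.

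**Figure D4:**
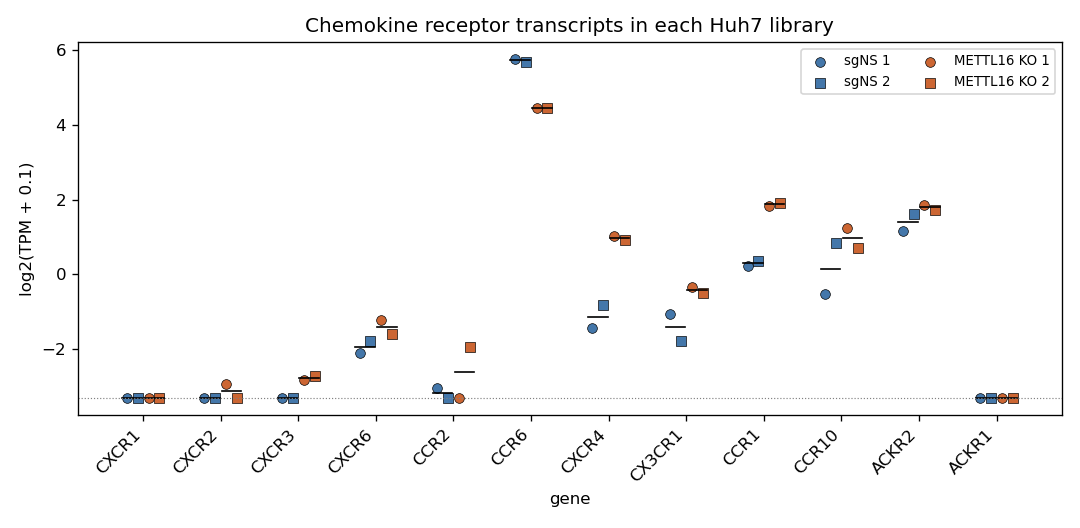
Level of 12 chemokine receptors as log2(TPM + 0.1) in each of the 4 libraries, in sgNS (blue) and METTL16 KO (orange), with circles for replicate 1, squares for replicate 2, short lines for group means and a dotted line where TPM is 0. CCR6 is the highest in both groups and lower in METTL16 KO, while CXCR1, CXCR2 and CXCR3 stay at or near the dotted line.

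Genes of NF-kB signalling, which switches inflammatory chemokines on, were for the most part higher in METTL16 KO. Among NF-kB subunits, their regulators and inducing cytokines and receptors, 32 of 35 listed genes were in the table and 24 were tested. Of these, 21 were higher (50.1% of all genes were), 12 of them past the fold threshold (7.70% of all genes). Another 2 were lower (25.6% of all genes), 0 of them past the fold threshold (3.77% of all genes), and 1 did not pass. Of the listed cytokines only IL32 and TNFSF10 were tested. TNF, LTA and LTB were not in the table. IL1A, IL1B, IL6, IL17C, IL18 and TNFSF15 were under 1 TPM in every library. The median log2 fold change of the 24 was 1.00, beside 0.16 for all genes. The count higher past the fold threshold was 7 after median-ratio scaling (5.22% of all genes) and 7 under quantile normalization (4.90% of all genes). At the adjusted p alone 20 were higher in both (33.7% and 36.9% of all genes). TNFAIP3 (A20), an NF-kB target that shuts the pathway off, was at 5.98 and 6.17 TPM (sgNS) versus 26.89 and 26.02 TPM (METTL16 KO), for a log2 change of 2.10 (adjusted p = 9.2e-10). MYD88, the adaptor of interleukin-1 and Toll-like receptors, was at 15.94 and 15.36 TPM against 44.07 and 42.13 TPM, and rose by 1.46 on the log2 scale with an adjusted p of 3.1e-09. IL32, a proinflammatory cytokine, rose by 1.74 from 35.22 and 36.18 TPM to 117.97 and 120.85 TPM, with an adjusted p of 1.2e-10.

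TLR3, the endosomal sensor of double-stranded RNA, was at 0.34 and 0.6 TPM (sgNS) versus 2.64 and 2.29 TPM (METTL16 KO), for a log2 change of 2.21 (adjusted p = 2.1e-05) for a gene that passed the filter only through METTL16 KO. IKBKG, which encodes NEMO, the regulatory subunit of the kinase complex that activates NF-kB, fell by 0.64 on the log2 scale (adjusted p = 1.1e-04). IL17RC, a chain of the interleukin-17 receptor, fell by 0.45 with an adjusted p of 5.4e-04. Neither call held in an unmoderated linear model, where the adjusted p was 0.053 for IKBKG and 0.11 for IL17RC. RELA, the main activating subunit of NF-kB and singled out after its values were seen, was at 47.63 and 45.37 TPM (sgNS) versus 73.22 and 73.67 TPM (METTL16 KO), for a log2 change of 0.66 (adjusted p = 2.6e-07).

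Regulators on the interferon side, which drive CXCL10 and CXCL11, were counted in the same way. Of 21 listed, 20 were in the table and 17 were tested. Of these, 13 (76.5%) were higher, beside 50.1% of all genes, and 2 (11.8%) were lower, beside 25.6%. The remaining 2 did not pass, and the median was 0.64, beside 0.16 for all genes. After median-ratio scaling 12 (70.6%) were higher and 4 (23.5%) were lower, beside 33.7% and 38.9% of all genes. In an unmoderated linear model 9 (52.9%) were higher and 1 (5.88%) was lower, beside 33.8% and 16.3%. Only IRF1, IFIH1 and TMEM173 passed the fold threshold (17.6%, beside 7.70% of all genes for a rise). IFIH1 and TMEM173 passed the filter on low values only through METTL16 KO. IRF1, a factor that activates CXCL10, was at 4.92 and 4.52 TPM (sgNS) versus 16.05 and 16.64 TPM (METTL16 KO), for a log2 change of 1.77 (adjusted p = 1.4e-08). IFIH1 (MDA5), a sensor of double-stranded RNA, was at 0.35 and 0.36 TPM against 2.9 and 2.8 TPM, and TMEM173 (STING), which signals the presence of cytosolic DNA, was at 0.81 and 0.85 TPM against 2.65 and 2.04 TPM. Their log2 fold changes were 2.70 (adjusted p = 1.1e-06) and 1.38 (adjusted p = 1.2e-04). STAT2, part of the complex that carries type I interferon signals, fell by 0.50 on the log2 scale, from 24.64 and 24.2 TPM to 17.2 and 17.32 TPM, with an adjusted p of 1.5e-05. The interferon genes IFNB1, IFNL1 and IFNG were listed at 0 in all 4 libraries.

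The immune cells that chemokines attract also make them, so markers of such cells were examined in the cultures. Of 16 markers, 9 were under 1 TPM in every library, and the pan-leukocyte gene PTPRC (CD45) was at 0.24 and 0.2 TPM (sgNS) versus 0.48 and 0.15 TPM (METTL16 KO). The macrophage receptor gene CSF1R was between 0.02 and 0.04 TPM and the B cell gene MS4A1 was at 0 in all 4. The sum of the 16 was 1521 and 1562 TPM in sgNS and 928 and 938.8 TPM in METTL16 KO, nearly all of it LYZ (lysozyme), and without LYZ it was 10.8 and 8.6 TPM against 19.0 and 14.8 TPM. CD68, a lysosomal gene that is not specific to macrophages, was at 3.4 and 2.72 TPM against 8.86 and 8.57 TPM, for a log2 change of 1.49 (adjusted p = 9.4e-07). Of the 6 markers tested, 4 (66.7%) were higher, beside 50.1% of all genes. After median-ratio scaling 1 (16.7%) was higher, beside 33.7% of all genes. LYZ alone was lower (16.7%, beside 25.6% of all genes), by 0.74 on the log2 scale. The calls of LAPTM5 (adjusted p = 0.048), CD3D (0.047) and CD14 (0.028) did not hold under median-ratio scaling or quantile normalization.

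Hepatocyte markers were expressed in both groups. Of 11 hepatocyte genes, 7 (63.6%) were higher, 3 (27.3%) were lower and 1 did not pass, shares near those of all genes (50.1% and 25.6%). ALB, the albumin gene, was at 7437 and 7537 TPM (sgNS) versus 10079 and 9882 TPM (METTL16 KO), and AFP (alpha-fetoprotein) rose by 2.54 on the log2 scale, from 1737 and 1793 TPM to 10387 and 10197 TPM. APOA2, an apolipoprotein of high-density lipoprotein, fell by 1.90, from 12410 and 12347 TPM to 3277 and 3375 TPM. The part that such shifts in the total RNA have in the chemokine values was not tested.

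Position on chromosome 4 was examined because 5 members and CXCL6 lie within a single cluster. On GRCh38 (GENCODE 44), CXCL8 lies at chr4:73740519-73743716, CXCL1 at chr4:73869393-73871308, CXCL5 at chr4:73995642-73998677, CXCL3 at chr4:74036589-74038807 and CXCL2 at chr4:74097040-74099196. All 6 chemokines of the cluster that were tested rose by at least 2.09 on the log2 scale. Of 10 other protein-coding genes that lie in the cluster or within 500 kb of it, 6 were tested and all 6 were higher at the adjusted p, as were 50.1% of all genes, with a median log2 fold change of 0.51 beside 0.16 for all genes. MTHFD2L, an enzyme of mitochondrial folate metabolism and the nearest at 15 kb, rose by 0.53 with an adjusted p of 0.0015, and ALB, AREG and ANKRD17 rose by 0.41, 0.37 and 0.48. The AREG call was lost after median-ratio scaling (adjusted p = 0.10) and those of AREG and ALB under quantile normalization (0.11 and 0.13). AFM (afamin), from 0.31 and 0.19 TPM (sgNS) to 4.45 and 4.28 TPM (METTL16 KO), rose by 3.69 with an adjusted p of 1.7e-07. It passed the filter only through METTL16 KO. AFP was the remaining neighbour past the fold threshold, which makes 2 of the 6, beside 7.70% of all genes.

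**Figure D5:**
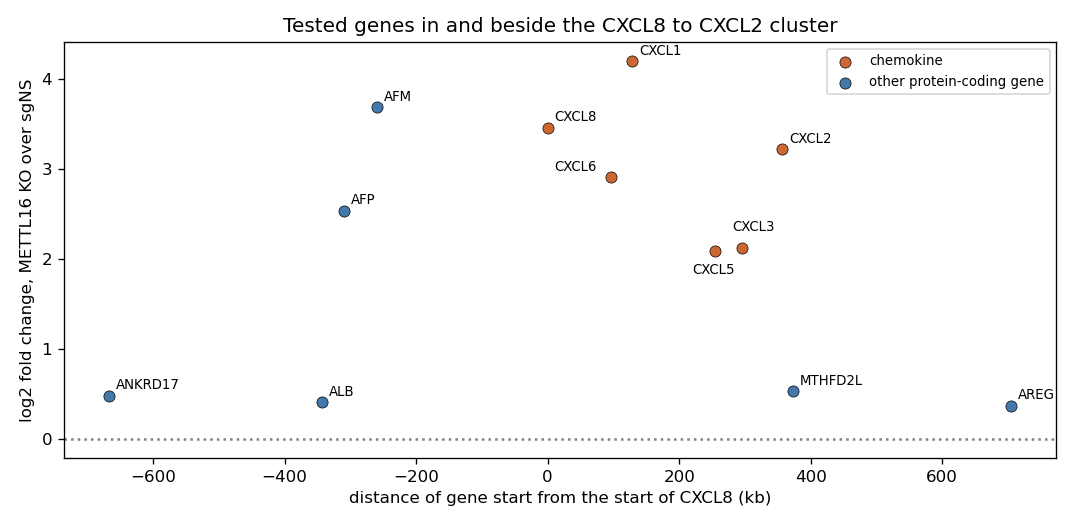
Log2 fold change (METTL16 KO over sgNS, vertical axis) of tested genes by the distance in kb of the gene's first coordinate from that of CXCL8 (horizontal axis), with chemokines in orange and other protein-coding genes in blue. The 6 chemokines lie between 2.09 and 4.20, AFM and AFP lie among them in height, and the other 4 neighbours lie between 0.37 and 0.53.

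CXCL10 (chr4:76021118-76023497) and CXCL11 (chr4:76033682-76041415) lie with CXCL9 in a second cluster farther along the chromosome. Of 17 other protein-coding genes in or within 500 kb of it, 12 were tested, of which 8 were higher, 2 were lower and 2 did not pass, with a median log2 fold change of 0.28, again beside 50.1% higher, 25.6% lower and 0.16 for all genes. After median-ratio scaling, 3 of the 12 were higher and 4 were lower, beside 33.7% and 38.9% of all genes. SDAD1, a ribosome biogenesis gene at 10 kb from the cluster, rose by 0.30 with an adjusted p of 0.00021, which was 0.082 after median-ratio scaling, against 4.49 for CXCL10. FAM47E and STBD1, the latter a glycogen-binding protein gene, rose by 1.11 and 1.27, while ART3 and NAAA, an enzyme that breaks down fatty acid ethanolamides, fell by 1.58 and 0.84. The genes of CXCL16 (chr17:4733533-4739928), CCL2 (chr17:34255274-34257208) and CCL20 (chr2:227805739-227817564) lie apart from these clusters, and METTL16 itself lies on chromosome 17 (chr17:2405562-2511891).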

How the data were processed

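RNA-seq of METTL16-targeted Huh7 cells (METTL16 KO) was compared with that of non-targeting controls (sgNS), 2 libraries each. Per the study's methods, libraries were made with a stranded mRNA kit, although the labels name ribosomal RNA removal. The authors used Cutadapt for trimming, STAR for alignment to GRCh38 and RSEM for quantification, versions and annotation being not given in the sources used here. The deposited table holds TPM per gene symbol in 2 decimals. The methods call the unit RPKM, but every column sums to 1000000. TPM keeps no read counts, so depth is unknown and neither counting intervals nor a count model were used.

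METTL16 KO was compared with sgNS on log2(TPM + 0.1) by limma 3.58.1 in R 4.3.3 (lmFit, eBayes with trend, two-sided, no block) over genes with a mean of at least 1 TPM, with Benjamini-Hochberg adjustment over all genes tested. Alternatives were other pseudocounts, filters, scalings, models and thresholds, a replicate block and each library left out. Same-numbered libraries did not deviate together (r = -0.04 over 11971 genes), and the labels tie the numbers to nothing shared.

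The members, related lists and motifs were chosen with earlier results of these data known. The text names every member, tested ligands and receptors, of every other list up to 4 genes with the largest rise and 4 with the largest fall among those called, and neighbours within 500 kb, though not all genes so chosen are printed. ART3, PTPRC, CSF1R, MS4A1, CXCL9, genes listed at 0 and untested receptors, the cytokines of the NF-kB list, and RELA, are named beside them. Tables (pandas 2.3.3, numpy 2.4.6) and figures (matplotlib 3.10.9) were made in Python 3.11.15. Gene positions are from GENCODE 44, and promoter sequences are from RefSeq (GRCh38.p14).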

Additional observations from a re-analysis of the deposited data

How the results depend on the processing

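All 103 alternative values of the 8 tested chemokines kept their direction and call, with log2 fold changes of 3.51 to 4.36 for CXCL1, 3.03 to 3.27 for CXCL2, 1.57 to 2.44 for CXCL3, 1.89 to 2.14 for CXCL5, 3.18 to 3.54 for CXCL8 and 3.95 to 4.62 for CXCL10. CXCL3 was not tested at a minimum mean of 5 TPM. The size of the adjusted p depended on the model. In the unmoderated linear model it ran from 0.011 for CXCL2 to 0.046 for CXCL3, and was 0.016 for CXCL1. With the replicate block the counts were again 6 higher past both thresholds, 7 higher and 1 lower, and in the related lists the block added the calls of CCR10 and ACKR2. Summed over the 10 members, TPM differed by 1.04 (log2) and by 0.84 after median-ratio scaling. Of 88 genes tested in the related lists, 23 were higher past both thresholds, beside 7.70% of all genes. The count was 16 after median-ratio scaling (5.22% of all genes) and 16 under quantile normalization (4.90%). It was 18 with a pseudocount of 1 (5.46%). At a 1.5-fold threshold it was 43, a setting for which the share of all genes was not counted. The 2 lower past both (3.77% of all genes) became 4 under quantile normalization (5.83%) and 5 at 1.5-fold, again without a share of all genes. The 13 lower at the adjusted p alone (25.6% of all genes) became 21 after median-ratio scaling (38.9%) and 8 in the unmoderated model (16.3%). XCL1 turned to 0.24 without METTL16 KO replicate 2 and was called at -0.53 without METTL16 KO replicate 1 (adjusted p = 0.02). The cause of these changes was not tested. Without sgNS replicate 2, CCR10 was called at 1.51 (adjusted p = 0.0021) and ACKR2 at 0.62 (adjusted p = 0.011). With 2 libraries a group, an arm left with 1 library was assumed to vary like the other. Depth could not be assessed from TPM.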

Other observations

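Transcripts of proteins that destroy or stabilise chemokine mRNAs moved by 1.00 or less on the log2 scale. All 13 listed were tested, and 7 were higher, 1 of them past the fold threshold (7.69%, beside 7.70% of all genes). A further 1 (7.69%, beside 25.6% of all genes) was lower and 5 did not pass. The median was 0.20 on the log2 scale, beside 0.16 for all genes. The share that was higher, 53.8%, lies near that of all genes (50.1%). After median-ratio scaling 4 (30.8%) were higher and 6 (46.2%) were lower, beside 33.7% and 38.9% of all genes. ZC3H12A (Regnase-1), an RNase that cuts inflammatory mRNAs, was at 5.03 and 5.44 TPM (sgNS) versus 9.83 and 11.39 TPM (METTL16 KO). It rose by 1.00 on the log2 scale with an adjusted p of 4.3e-06. The rise was 0.81 after median-ratio scaling and 0.82 under quantile normalization, short of the fold threshold. ZFP36 (tristetraprolin), which binds AU-rich elements and recruits the deadenylase, was at 33.08 and 34.16 TPM against 46.68 and 44.79 TPM, for a log2 change of 0.44 (adjusted p = 1.3e-05). Its relative ZFP36L2 rose by 0.31 and the deadenylase scaffold CNOT1 by 0.36. HNRNPD (AUF1), another AU-rich element binding protein, fell by 0.53, from 238.42 and 237.94 TPM to 168.82 and 160.45 TPM, with an adjusted p of 2.5e-07.

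Of 15 listed proteases that trim or release chemokines, 9 were tested, of which 5 (55.6%) were higher and 3 (33.3%) were lower, none past the fold threshold, with a median of 0.22. These shares lie near those of all genes (50.1% and 25.6%, median 0.16). DPP4, which clips the ends of CXCL10 and CXCL11 and so weakens them, was at 29.34 and 31.82 TPM (sgNS) versus 55.12 and 55.19 TPM (METTL16 KO), for a log2 change of 0.85 (adjusted p = 1.2e-07). ADAM10 and ADAM17, which shed CXCL16 and CX3CL1 from the cell surface, rose by 0.61 and 0.44 with adjusted p-values of 2.3e-07 and 4.4e-05. ANPEP (aminopeptidase N) was at 88.78 and 81.26 TPM against 45.32 and 47.71 TPM and fell by 0.87 on the log2 scale with an adjusted p of 9.8e-08.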
